A study of Homo sapiens with 18 samples.

Results

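The genes described here are the phosphatidylserine synthases PTDSS1 and PTDSS2, the phosphatidylserine decarboxylase PISD, the 4 enzymes that build cardiolipin in mitochondria (TAMM41, PGS1, PTPMT1 and CRLS1), and the lipid transfer proteins PRELID1, PRELID3B and TRIAP1. They were chosen by name, and all 10 were found by gene ID among the 25343 human genes in the deposited tables. All 10 also passed the filter on low counts, which left 14074 genes for testing. The measurements are RNA-seq of xenograft tumours grown in mice from HCT116, a human colon cancer cell line. Each tumour carried the PTDSS2-KO genotype, so the synthase that the series title pairs with PTDSS1 inhibition is knocked out in the vehicle tumours too. Tumours came from 3 groups of 6 libraries: vehicle (0.5% methylcellulose), the PTDSS1 inhibitor DS55980254 at 10 mg/kg, and the same compound at 30 mg/kg. Dosing was by mouth and tumours were collected after 24 hours. There is 1 cell line, the number of knockout clones is not given in the sources used here, and no HCT116 tumour without the knockout is among the groups. The labels number the libraries within a group but do not say that each is a separate mouse, so p-values measure the spread between these libraries.

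Phosphatidylserine is made on the endoplasmic reticulum side of its contacts with mitochondria. PTDSS1 exchanges serine for the choline of phosphatidylcholine, and PTDSS2 exchanges it for the ethanolamine of phosphatidylethanolamine. Part of the product is carried through the mitochondrial intermembrane space to the inner membrane, where PISD removes the carboxyl group and leaves phosphatidylethanolamine. Phosphatidic acid takes a parallel path into the inner membrane and becomes cardiolipin, the lipid that holds respiratory chain complexes and cristae together. TAMM41 activates phosphatidic acid to CDP-diacylglycerol, PGS1 forms phosphatidylglycerol phosphate, PTPMT1 removes its phosphate, and CRLS1 joins phosphatidylglycerol to a second CDP-diacylglycerol.

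The 10 mg/kg replicate 2 library stood apart and bears on the member values below. It held 433981 counts, against 3435423 to 8538792 in the other 17 libraries, and its mean correlation with them was 0.726, against 0.942 to 0.954. Olfactory receptor genes, which are normally silent in gut epithelium, averaged 5.57 TPM in that library over 330 genes, against 0.223 to 2.44 TPM elsewhere (TPM is a level scaled for transcript length). The 330 genes, used for this level throughout, leave out some olfactory receptor families. Epithelial markers fitted the label: EPCAM had a median of 379 CPM (a count scaled for library size and composition) and KRT8 2705 CPM, whereas CEACAM5 was near 0 at 0.213 CPM. Summed fibroblast markers were 317 CPM in 10 mg/kg replicate 2, against 62.3 to 109 CPM in the other libraries. COL1A1 made up most of that sum, and COL1A2, DCN, LUM and FAP had medians of 0. Summed endothelial, leukocyte and erythroid markers were 94.1, 77.0 and 17.1 CPM in that library, and at most 22.9, 19.4 and 1.74 CPM elsewhere. Summed epithelial markers were 4257 CPM in it, against 5301 to 7523 CPM. The part of these signals in the member values was not tested.

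No member passed the test across all genes in any comparison of doses. The edgeR quasi-likelihood test with Benjamini-Hochberg adjustment called 0 of 10 members at 10 mg/kg against vehicle, where it called 66 of 14074 genes, or 0.469%. At 30 mg/kg against vehicle it again called 0 of 10 members, against 87 of 14074 genes, or 0.618%. Between 30 and 10 mg/kg it called 0 members and 0 genes (0%), with 496 genes, or 3.52%, at an unadjusted p under 0.05. The test for any difference among the 3 groups called 0 members and 80 genes, or 0.568%. DESeq2 and limma-voom also called 0 members in each of these comparisons. An unadjusted p under 0.05 was found for 1 member at 10 mg/kg (9.5% of all genes), 2 members at 30 mg/kg (7.9%), 1 member between doses (against 3.52%) and 1 member for any difference (7.6%). The ranges of CPM of the compared groups overlapped for all 10 members, while they were apart for 1.16% of genes at 10 mg/kg against vehicle, 1.73% at 30 mg/kg against vehicle and 0.135% between doses.

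The members were split in direction. Set against vehicle, 5 had positive and 5 negative log2 fold changes at 10 mg/kg, with a median of -0.05 against -0.0064 for all genes. For 30 mg/kg 4 were positive and 6 negative, with a median of -0.08 against -0.0011 for all genes. A missed threshold leaves room for moderate differences. The 95% intervals of the members' folds reached down to 0.559 (PRELID3B) and up to 1.58 (PTDSS2) at 10 mg/kg against vehicle. They reached down to 0.609 (TRIAP1) and up to 1.58 (PRELID3B) at 30 mg/kg against vehicle. PTDSS1 had the narrowest interval, 0.750 to 0.966 at 10 mg/kg and 0.781 to 0.999 at 30 mg/kg. In bulk tumour RNA, fewer cells of a type and less RNA per cell cannot be told apart.

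**Figure D1:**
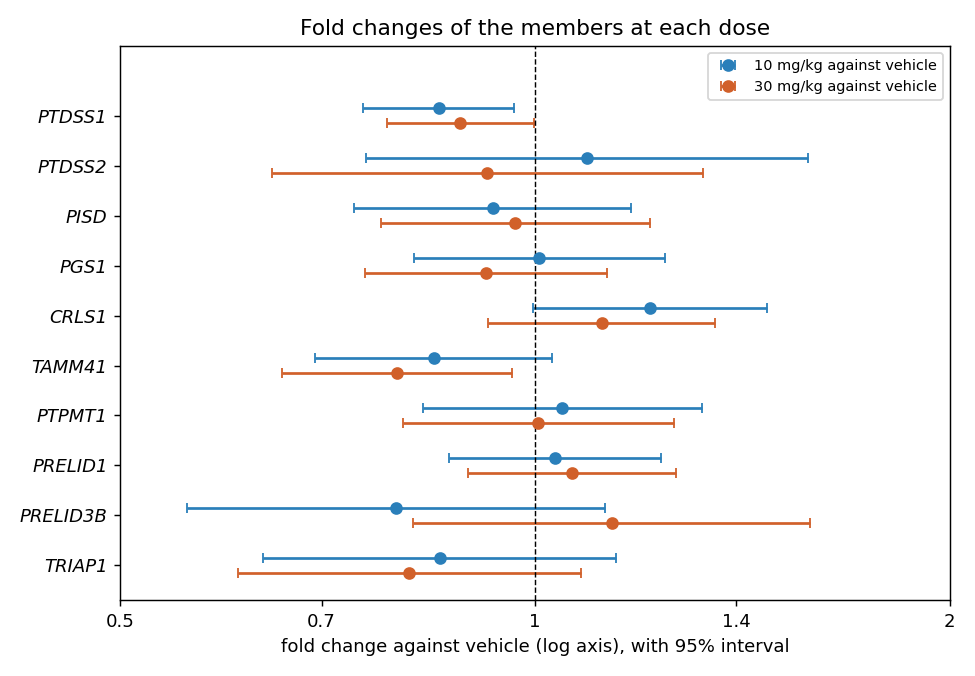
Fold change of each member at 10 mg/kg (blue) and 30 mg/kg (orange) against vehicle, on a log axis, with the 95% interval of the edgeR fit over 18 libraries. The PTDSS1 intervals lie just below 1 at both doses (0.750 to 0.966 and 0.781 to 0.999), TAMM41 lies below 1 at 30 mg/kg, and every other interval but that of PTDSS1 includes 1.

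PTDSS1, the remaining synthase and the enzyme that the compound inhibits, was the member whose fold changes had the smallest standard errors. Its lowest, median and highest normalised counts were 69.8, 78.1 and 81.8 CPM in vehicle tumours, 57.8, 64.6 and 73.1 CPM after 10 mg/kg, and 61.7, 67.4 and 74.9 CPM after 30 mg/kg. Of the 10 mg/kg libraries 5 of 6 lay below every vehicle library, and of the 30 mg/kg libraries 4 of 6 did, so the groups overlapped in their upper libraries. The log2 fold change was -0.23 (SE 0.09, unadjusted p = 0.0148, edgeR adjusted p = 0.379) after 10 mg/kg and -0.18 (SE 0.09, unadjusted p = 0.0480, edgeR adjusted p = 0.620) after 30 mg/kg against vehicle. The 57.8 CPM is 10 mg/kg replicate 2, on 27 counts. Without that library the log2 fold change after 10 mg/kg was -0.22 (edgeR adjusted p = 0.351).

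As the named target, PTDSS1 was also tested alone by a two-sided exact permutation test on log2(CPM + 0.5), over 924 arrangements with a smallest p of 0.00216. Mean log2 levels differed by -0.25 at 10 mg/kg against vehicle (exact p = 0.00649, 0.0195 after adjustment over 3 comparisons). They differed by -0.18 at 30 mg/kg against vehicle (exact p = 0.0130, 0.0195 adjusted) and by 0.07 at 30 against 10 mg/kg (exact p = 0.286). Tested alone, PTDSS1 had an exact p under 0.05 at each dose against vehicle. Among 14074 genes tested, its edgeR adjusted p was not under 0.05. Both doses share the same 6 vehicle libraries. The members were chosen with earlier results of these data known, and the exact test was run for PTDSS1 only. An unadjusted edgeR p under 0.05 was found for 9.5% of all genes at 10 mg/kg and 7.9% at 30 mg/kg against vehicle.

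PTDSS2 transcripts were counted in every library, with 22 to 57 counts in vehicle tumours, 4 to 64 at 10 mg/kg and 21 to 112 at 30 mg/kg. Reads counted over a whole gene do not check a knockout whose deleted stretch is not given, and there is no unedited tumour to compare with. Lowest, median and highest values were 4.97, 8.63 and 12.03 CPM in vehicle tumours, 7.11, 8.72 and 13.9 CPM after 10 mg/kg, and 5.32, 6.30 and 13.4 CPM after 30 mg/kg. The groups overlapped over most of their ranges. PTDSS2 had a log2 fold change of 0.12 (SE 0.26, edgeR adjusted p = 0.912) after 10 mg/kg and -0.11 (SE 0.25, edgeR adjusted p = 0.987) after 30 mg/kg against vehicle. On the TPM scale, PTDSS2 stood at 11.96 ± 3.25% of PTDSS1 TPM in vehicle tumours, 15.0 ± 2.68% after 10 mg/kg and 12.3 ± 5.61% after 30 mg/kg (SD, n = 6 each).

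**Figure D2:**
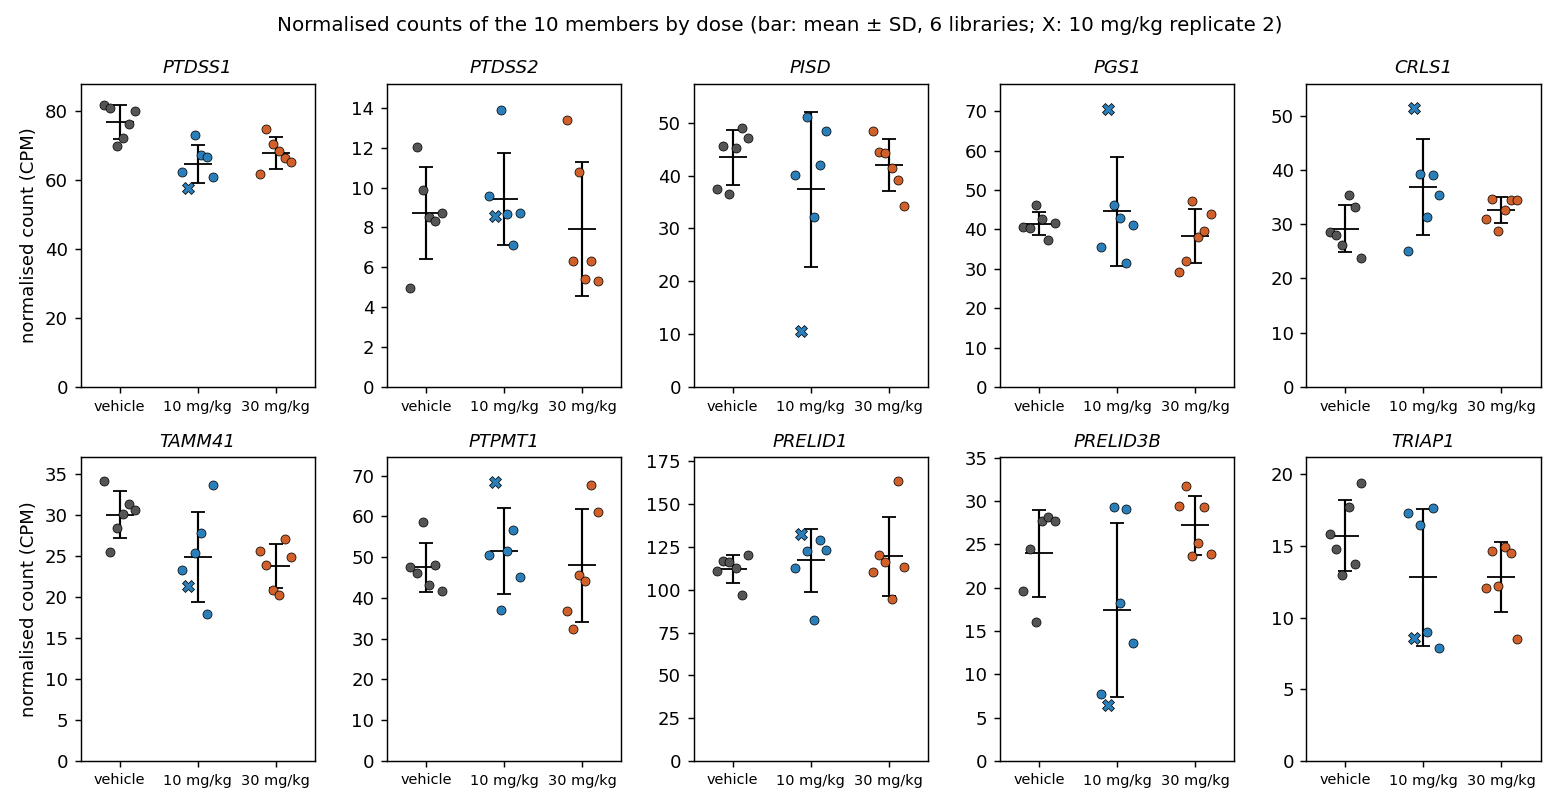
Normalised counts (CPM, linear axes from 0) of the 10 members in each library at vehicle, 10 and 30 mg/kg, with mean and SD over 6 libraries; the X marks 10 mg/kg replicate 2. PTDSS1 averaged 76.8, 64.7 and 67.9 CPM in dose order. The X is the lowest point for PTDSS1 (57.8 CPM), PISD (10.7 CPM) and PRELID3B (6.42 CPM). It is the highest for PGS1 (70.6 CPM), CRLS1 (51.3 CPM) and PTPMT1 (68.4 CPM).

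PISD, which turns imported phosphatidylserine into phosphatidylethanolamine, lay between 32.1 and 51.0 CPM in 17 of the 18 libraries. Its lowest, median and highest values were 36.5, 45.4 and 49.0 CPM in vehicle tumours, 10.7, 41.1 and 51.0 CPM after 10 mg/kg, and 34.3, 42.8 and 48.3 CPM after 30 mg/kg. The value of 10.7 CPM is 5 counts in 10 mg/kg replicate 2, and the other 10 mg/kg libraries began at 32.1 CPM. PISD had a log2 fold change of -0.10 (SE 0.16, edgeR adjusted p = 0.873) after 10 mg/kg and -0.05 (SE 0.16, edgeR adjusted p = 0.995) after 30 mg/kg against vehicle. It was -0.02 at 10 mg/kg without replicate 2.

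TAMM41, the first enzyme of the cardiolipin path, had the lowest unadjusted p of the members at 30 mg/kg against vehicle. Its lowest, median and highest values were 25.5, 30.3 and 34.1 CPM in vehicle tumours, 17.9, 24.3 and 33.7 CPM after 10 mg/kg, and 20.3, 24.4 and 27.1 CPM after 30 mg/kg. At each dose 4 of 6 libraries lay below every vehicle library. For TAMM41 the log2 fold change was -0.24 (SE 0.14, unadjusted p = 0.0909, edgeR adjusted p = 0.606) after 10 mg/kg and -0.33 (SE 0.13, unadjusted p = 0.0211, edgeR adjusted p = 0.485) after 30 mg/kg against vehicle. The mean transcript length that the deposited tables give for TAMM41 ran from 1297 to 2204 bases between libraries, a quantity that enters its TPM but not its CPM.

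PGS1, which catalyses the committed step towards phosphatidylglycerol, and CRLS1, the cardiolipin synthase itself, overlapped between all groups. PGS1 ranged from 37.3 to 46.1 CPM (median 41.2) in vehicle tumours, 31.5 to 70.6 CPM (median 42.0) after 10 mg/kg and 29.3 to 47.1 CPM (median 38.9) after 30 mg/kg. CRLS1 ranged from 23.8 to 35.4 CPM (median 28.3) in vehicle tumours, 25.1 to 51.3 CPM (median 37.2) after 10 mg/kg and 28.7 to 34.5 CPM (median 33.6) after 30 mg/kg. The highest value of each belongs to 10 mg/kg replicate 2. CRLS1 was the member with the most positive log2 fold change at 10 mg/kg against vehicle, 0.28 (SE 0.14, unadjusted p = 0.0543, edgeR adjusted p = 0.538), and had 0.16 (SE 0.13, edgeR adjusted p = 0.903) after 30 mg/kg. For PGS1 the log2 fold change was 0.01 at 10 mg/kg (edgeR adjusted p = 0.996), which was -0.07 without replicate 2, and -0.12 at 30 mg/kg (edgeR adjusted p = 0.951).

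PTPMT1, the mitochondrial phosphatase that releases phosphatidylglycerol, ranged from 41.7 to 58.6 CPM (median 46.8) in vehicle tumours, 37.1 to 68.4 CPM (median 51.0) after 10 mg/kg and 32.3 to 67.7 CPM (median 44.9) after 30 mg/kg. Its log2 fold change was 0.07 (SE 0.16, edgeR adjusted p = 0.930) after 10 mg/kg and 0.01 (SE 0.16, edgeR adjusted p = 0.999) after 30 mg/kg against vehicle. The SD at 30 mg/kg was 13.8 CPM, against 5.96 CPM in vehicle tumours. In a later annotation PTPMT1 overlaps NDUFS3, a complex I gene on the same strand, and CELF1 and KBTBD4 on the other. NDUFS3 shares its strand, and whether the counting used strand is not given, so PTPMT1 reads may be shared with these neighbours. The same limit of strand holds for PISD, PGS1, PRELID1 and TRIAP1, which overlap SFI1, DNAH17, MXD3 and AL021546.1 on the other strand. It also holds for PTDSS2, which has an antisense RNA. The expected counts of PISD, PTDSS2 and TRIAP1 were whole numbers in every library.

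PRELID1, which forms a complex with TRIAP1 that moves phosphatidic acid across the intermembrane space, was the most abundant member. It ranged from 96.8 to 120 CPM in vehicle tumours, 82.5 to 133 CPM after 10 mg/kg and 94.8 to 163 CPM after 30 mg/kg. The value of 163 CPM belongs to 30 mg/kg replicate 5. The log2 fold change was 0.05 (SE 0.12, edgeR adjusted p = 0.933) after 10 mg/kg and 0.09 (SE 0.12, edgeR adjusted p = 0.956) after 30 mg/kg against vehicle, and -0.02 at 30 mg/kg without replicate 5. The later annotation lists 7 pseudogenes of PRELID1, 11 of PRELID3B and 1 of TRIAP1. None of them has a row in the deposited tables, so reads from near-identical copies may be counted for these members.

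PRELID3B, whose complex with TRIAP1 carries phosphatidylserine inwards, varied widely at 10 mg/kg, with an SD of 10.1 CPM around a mean of 17.4 CPM. Its lowest, median and highest values were 15.99, 26.1 and 28.2 CPM in vehicle tumours, 6.42, 15.9 and 29.3 CPM after 10 mg/kg, and 23.7, 27.2 and 31.8 CPM after 30 mg/kg. In the 10 mg/kg group 4 of 6 libraries lay below every 30 mg/kg library, while the other 2 were at 29.1 and 29.3 CPM, inside the 30 mg/kg range. Against vehicle its log2 fold change was -0.34 (SE 0.24, edgeR adjusted p = 0.701) after 10 mg/kg and 0.19 (SE 0.23, edgeR adjusted p = 0.951) after 30 mg/kg. At 30 against 10 mg/kg it was 0.52 (SE 0.24, unadjusted p = 0.0423, edgeR adjusted p = 0.969). It was 0.46 (unadjusted p = 0.0625) without 10 mg/kg replicate 2.

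TRIAP1, the small intermembrane space partner that both transfer proteins bind and a known p53 target, ranged from 12.9 to 19.4 CPM (median 15.3) in vehicle tumours. With 10 mg/kg its values lay in 2 separate ranges, 7.89 to 8.97 CPM in replicates 2, 4 and 6 and 16.5 to 17.7 CPM in the other 3. Olfactory receptor levels were 5.57, 2.44 and 0.710 TPM in replicates 2, 4 and 6, and 0.264 to 0.458 TPM in the other 3. Replicate 2 rested on 4 counts of TRIAP1. Among 30 mg/kg libraries replicate 6 was at 8.52 CPM, with an olfactory receptor level of 0.246 TPM. The other 5 libraries were at 12.1 to 14.9 CPM. Of these, replicate 5 was at 14.5 CPM, with an olfactory receptor level of 1.496 TPM. The part of the olfactory receptor signal in the TRIAP1 values was not tested. The log2 fold change was -0.23 (SE 0.21, edgeR adjusted p = 0.760) after 10 mg/kg and -0.30 (SE 0.20, edgeR adjusted p = 0.832) after 30 mg/kg against vehicle. Without 10 mg/kg replicates 2 and 4 and 30 mg/kg replicate 5 these were -0.09 and -0.34. The replicates low for TRIAP1 at 10 mg/kg are also 3 of the 4 low for PRELID3B, replicate 1 being low for PRELID3B only (7.76 CPM) and at 17.3 CPM for TRIAP1.

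The members kept the same places at the ends of the order of levels at each dose. On the TPM scale, PRELID1 averaged 184 ± 11.4 TPM in vehicle tumours, followed by PTDSS1 at 61.1 ± 5.06 TPM (SD, n = 6). PTPMT1 (36.8 TPM), PGS1 (36.7 TPM), TAMM41 (36.6 TPM), PISD (32.8 TPM), TRIAP1 (27.9 TPM), PRELID3B (19.5 TPM) and CRLS1 (14.8 TPM) came next. PTDSS1 did not overlap PTPMT1 among vehicle libraries, and each gene from PTPMT1 to PRELID3B overlapped the next in that order. PTDSS2 was lowest at 7.23 ± 1.85 TPM, and its vehicle libraries did not overlap those of CRLS1. PRELID1 did not overlap PTDSS1 in any group. In the 10 mg/kg group that was the only step without overlap. In the 30 mg/kg group CRLS1 also lay apart from both PRELID3B above it and PTDSS2 below it.

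In 10 mg/kg replicate 2, PTDSS2 (4.55 TPM), PISD (5.17 TPM) and PRELID3B (3.72 TPM) were at or below the 5.57 TPM that olfactory receptor genes averaged there, and rested on 4, 5 and 3 counts. In the other 17 libraries none of the 170 values of a member was at or below that library's olfactory receptor level.

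**Figure D3:**
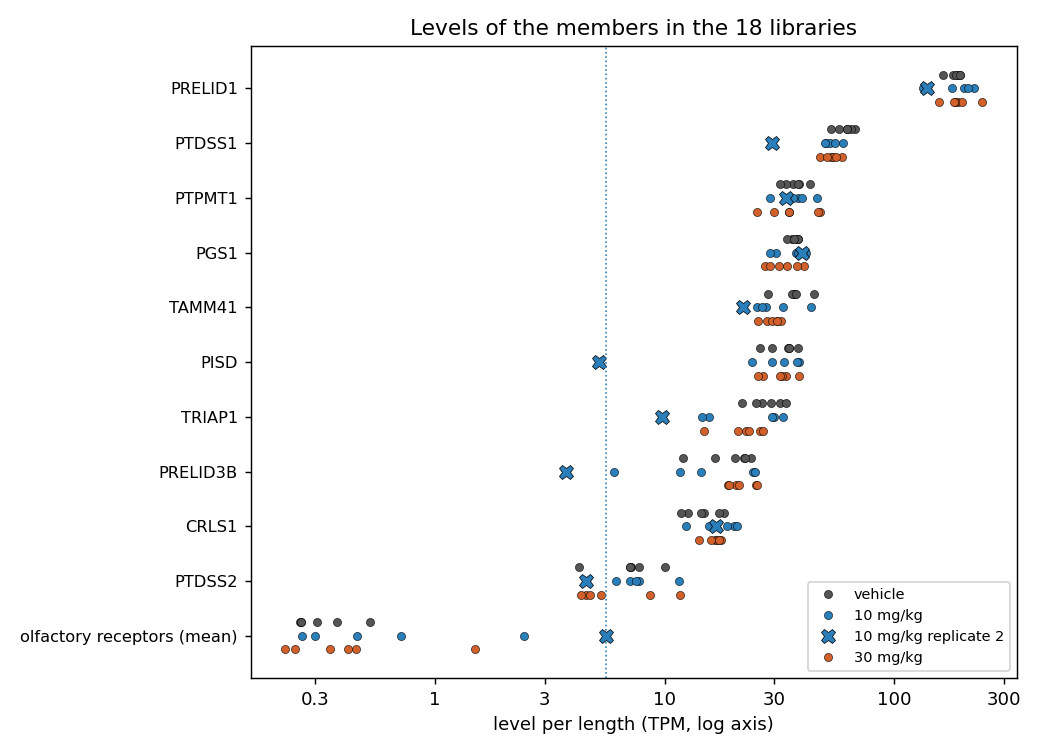
Deposited TPM (log axis) of each member in the 18 libraries, ordered by the vehicle mean, with the mean of 330 olfactory receptor genes in the bottom row; the dotted line is their mean in 10 mg/kg replicate 2, 5.57 TPM. PRELID1 lies above every other member, PTDSS2 at the low end, and PTDSS2, PISD and PRELID3B reach the dotted line in the library marked X.

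Ratios of members are given per library group as a description. PISD stood at 53.9 ± 6.61% of PTDSS1 TPM in vehicle tumours, 53.7 ± 20.2% after 10 mg/kg and 58.7 ± 7.40% after 30 mg/kg (SD, n = 6 each). PRELID1 exceeded PRELID3B 9.96-fold (SD 2.86) in vehicle tumours, 18.6-fold (SD 12.3) after 10 mg/kg and 9.01-fold (SD 1.57) after 30 mg/kg, on the TPM scale. It exceeded TRIAP1 6.71-fold (SD 0.965) in vehicle tumours, 9.47-fold (SD 3.87) after 10 mg/kg and 8.90-fold (SD 2.23) after 30 mg/kg. The 10 mg/kg values include replicate 2, at 17.7% for PISD, 37.3-fold for PRELID3B and 14.3-fold for TRIAP1. That library had 5, 3 and 4 counts of these genes. The 10 mg/kg medians were 59.3%, 13.6-fold and 7.68-fold, against 55.0%, 9.11-fold and 6.50-fold in vehicle tumours.

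Among the 12554 tested genes with a mean of at least 5 CPM, the 5 whose CPM followed PTDSS1 most closely over the 18 libraries were FAM86C2P, NEMP1, MSS51, DKK1 and HACE1. Their rank correlations with PTDSS1 were 0.843, 0.829, 0.814, 0.808 and 0.808, given as a description over libraries that share their dose groups. DKK1, a secreted inhibitor of Wnt signalling, averaged 22.8 CPM in vehicle tumours, 8.79 CPM after 10 mg/kg and 11.8 CPM after 30 mg/kg. NEMP1, an inner nuclear membrane protein, averaged 48.8 CPM in vehicle tumours, 35.9 CPM after 10 mg/kg and 38.0 CPM after 30 mg/kg. HACE1, a ubiquitin ligase, averaged 42.7 CPM in vehicle tumours, 33.9 CPM after 10 mg/kg and 36.0 CPM after 30 mg/kg.

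The genes around the members were read from 6 lists with 44 genes, all of which were tested. At 10 mg/kg against vehicle 0 of the 44 passed edgeR's adjusted p under 0.05, beside 0.469% of all genes, with a median log2 fold change of -0.06. An unadjusted edgeR p under 0.05 was found for 3 of the 44, beside 9.5% of all genes, and DESeq2 called 1, PCYT2. At 30 mg/kg against vehicle 1 rose and 0 fell, beside 0.618% of all genes called, with a median of 0.03. There 2 had an unadjusted edgeR p under 0.05, beside 7.9% of all genes. Between 30 and 10 mg/kg 0 passed by edgeR or DESeq2, with a median of 0.08, and edgeR called 0% of all genes. There 1 had an unadjusted edgeR p under 0.05, beside 3.52% of all genes.

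PCYT2, the rate-limiting enzyme of the CDP-ethanolamine route that makes phosphatidylethanolamine outside mitochondria, was the 1 gene that rose. Its lowest, median and highest values were 60.4, 63.3 and 69.4 CPM in vehicle tumours, 75.3, 80.0 and 93.4 CPM after 10 mg/kg, and 80.7, 89.1 and 102 CPM after 30 mg/kg. Neither dose group overlapped the vehicle libraries in CPM. On the TPM scale the 10 mg/kg group did, reaching down to 30.3 TPM, against 35.1 to 42.6 TPM in vehicle tumours. The 30 mg/kg group began at 48.1 TPM. The log2 fold change was 0.47 (SE 0.09, edgeR adjusted p = 0.00497) after 30 mg/kg and 0.36 (SE 0.09, edgeR adjusted p = 0.0772) after 10 mg/kg against vehicle. At 30 mg/kg the adjusted p was 0.102 with no filter on low counts and 0.4005 on log2(TPM + 1) with limma, and at 10 mg/kg it was 0.0340 without replicate 2. The other 5 genes of the route, ETNK1, ETNK2, SELENOI, CEPT1 and PEMT, did not pass. CEPT1, the final transferase, averaged 12.8 ± 4.43 CPM after 10 mg/kg and 17.3 ± 4.99 CPM in vehicle tumours (SD, n = 6 each), a log2 fold change of -0.37 (edgeR adjusted p = 0.584).

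CDS1, 1 of the 2 enzymes that make CDP-diacylglycerol in the endoplasmic reticulum, had log2 fold changes of 0.37 at both 10 and 30 mg/kg against vehicle (edgeR adjusted p = 0.520 and 0.582). Its lowest, median and highest values were 23.8, 26.3 and 28.2 CPM in vehicle tumours, 26.3, 31.1 and 74.9 CPM after 10 mg/kg, and 24.4, 34.1 and 41.5 CPM after 30 mg/kg. The 74.9 CPM is again 10 mg/kg replicate 2. Neither gene of the list passed, and CDS2 was at 0.03 and -0.04 on the log2 scale at 10 and 30 mg/kg.

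Of 7 genes of cardiolipin remodelling and turnover 0 passed, with medians of 0.02 at 10 mg/kg and 0.11 at 30 mg/kg against vehicle. PNPLA8, a calcium-independent phospholipase of mitochondria, averaged 23.8 ± 5.56 CPM after 30 mg/kg and 19.0 ± 3.60 CPM in vehicle tumours (SD, n = 6 each; log2 fold change 0.33, edgeR adjusted p = 0.755). Of 4 genes of phosphatidylserine turnover 0 passed, and LPCAT3, which adds fatty acids back to lysophospholipids, averaged 27.6 ± 2.96 CPM after 30 mg/kg and 25.2 ± 2.66 CPM in vehicle tumours.

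Of 14 genes of mitochondrial lipid transfer and inner membrane scaffolding 0 passed. At each dose against vehicle 10 of 14 were negative, beside 51.2% of all genes at 10 mg/kg and 50.2% at 30 mg/kg. The outlying value of that list, PLSCR3, a phospholipid scramblase of mitochondria, had log2 fold changes of -0.60 at 10 mg/kg and -1.77 at 30 mg/kg against vehicle (edgeR adjusted p = 0.853 and 0.664). It overlaps, and may share reads with, the readthrough gene TMEM256-PLSCR3. PLSCR3 had medians of 28.96 CPM in vehicle tumours, 18.002 CPM after 10 mg/kg and 1.78 CPM after 30 mg/kg, while the readthrough gene had 6.79, 21.3 and 28.2 CPM in the same order of doses. Their sum averaged 37.5 ± 5.18 CPM in vehicle tumours, 39.7 ± 8.91 CPM after 10 mg/kg and 36.2 ± 7.05 CPM after 30 mg/kg (SD, n = 6 each). The ranges of PLSCR3 overlapped between groups, and the difference in the readthrough gene and in the sum was not tested.

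General mitochondrial content genes gave no call either. Of 11 such genes, 10 were negative at 10 mg/kg against vehicle (median -0.09), where 51.2% of all genes were negative. At 30 mg/kg against vehicle 8 were positive (median 0.04), where 50.2% of all genes were negative, and 0 passed at either dose. CS, VDAC1, VDAC2, TOMM20, TIMM23 and HSPA9 had their lowest 10 mg/kg value in replicate 2, on 11 to 47 counts. TOMM22 had its highest there, on 28 counts. The part of that library in these signs was not tested. TFAM, which packages and transcribes mitochondrial DNA, averaged 26.4 ± 10.0 CPM after 10 mg/kg and 39.2 ± 5.17 CPM in vehicle tumours (SD, n = 6 each). Its log2 fold change was -0.49 at 10 mg/kg (SE 0.19, unadjusted p = 0.0157, edgeR adjusted p = 0.384) and -0.17 at 30 mg/kg (edgeR adjusted p = 0.942). The 10 mg/kg replicates 1, 2 and 6, which are the lowest for PRELID3B, were also the lowest for TFAM.

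**Figure D4:**
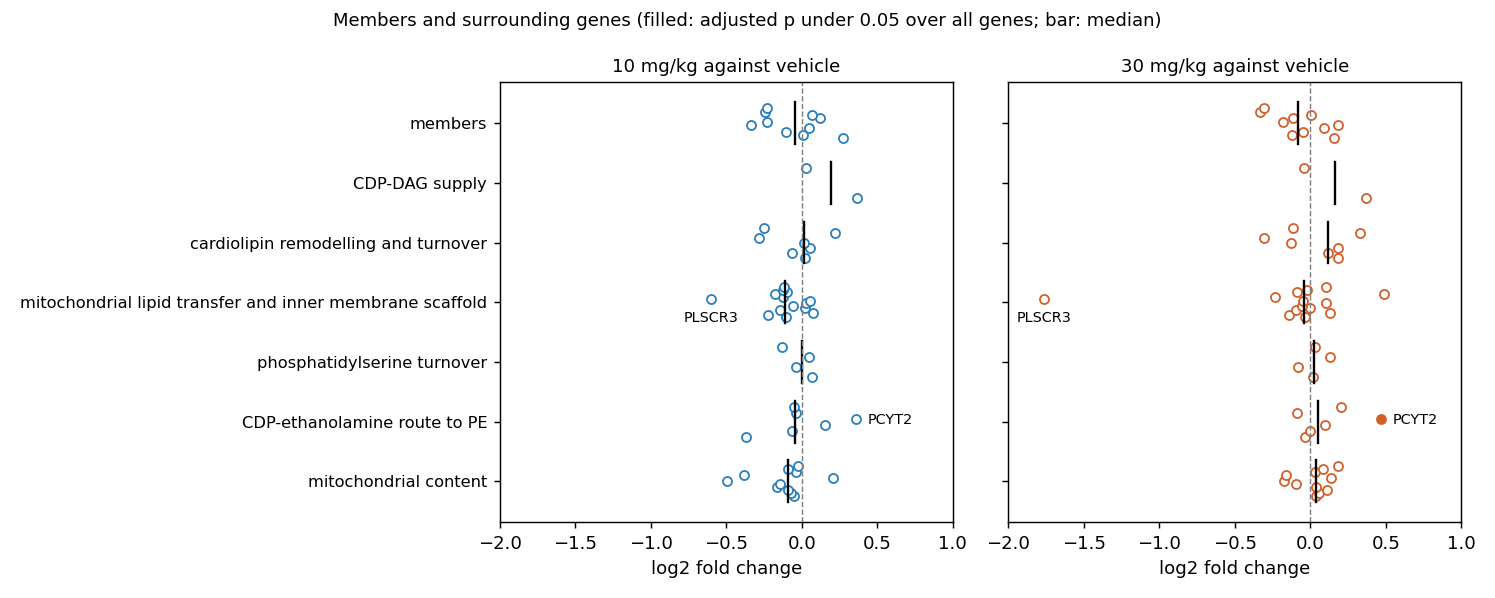
Log2 fold changes of the 10 members and of the 44 genes in the 6 lists at 10 mg/kg (left) and 30 mg/kg (right) against vehicle; filled points passed edgeR's adjusted p under 0.05 over all genes and bars are list medians. PCYT2 at 30 mg/kg (0.47) is the 1 filled point, and PLSCR3 (-0.60 and -1.77) may share reads with a readthrough gene.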

How the data were processed

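RNA from xenograft tumours was sequenced in 18 libraries, 3 groups of 6 set by the labels. Per the labels' protocols, libraries were made from 5 ng of total RNA with a stranded pico-input kit. Per the submitters' processing notes, STAR 2.4.2a and the builds hg19 and mm10 were used. No source used here gives how human and mouse reads were separated, or the quantification tool and its strand setting. Deposited by the authors were RSEM-style tables of expected counts, unscaled estimates of reads per gene, and TPM, scaled by the authors for transcript length and depth.

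Expected counts, of which 7.20 to 12.2% per library were not whole, were rounded. Total counts per library ran from 433981 to 8538792. Gene symbols were matched by ID for 25220 genes and by accession for 26, and 97 had none. Genes were filtered with filterByExpr, scaled by TMM and fitted over all 18 libraries with edgeR 4.0.16 (robust quasi-likelihood, R 4.3.3), without a block. Adjusted p is by Benjamini-Hochberg over all 14074 genes, with 0.05 as the threshold. DESeq2 1.42.0 and limma 3.58.1 were alternatives. The fit was tested on simulated data. Overlapping genes and pseudogenes were looked up by name in GENCODE, and no coordinates are given because the builds differ.

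The members and lists were chosen with earlier results of these data known. The text names the 10 members, each list gene past the threshold, the list gene with the smallest unadjusted p against vehicle besides these, and the 5 genes of at least 5 CPM ranked most like PTDSS1. TMEM256-PLSCR3 and the genes listed as not passing were named after their values were seen.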

Additional observations from a re-analysis of the deposited data

Results flagged for a closer look

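In each group of 6 libraries, the highest and the lowest CPM of each member was compared with its nearest neighbour, as a share of the group's range. Of 30 groups, 2 had a gap above Dixon's 95% critical value, and chance flags about 1 in 20. PTDSS2 was at 13.9 CPM in 10 mg/kg replicate 3, and the other 10 mg/kg libraries reached 9.57 CPM. PRELID1 was at 163 CPM in 30 mg/kg replicate 5, and the other 30 mg/kg libraries reached 120 CPM. That library also had the third-highest olfactory receptor level, 1.496 TPM, and the part of this in the PRELID1 value was not tested.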

How the results depend on the processing

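In 28 alternatives, of which 1 (leaving out the 3 libraries of highest olfactory receptor level, 10 mg/kg replicates 2 and 4 and 30 mg/kg replicate 5) was chosen after seeing the data, 0 members were called in any of 111 repeats of the comparisons, and the smallest adjusted p of a member was 0.191. The 600 repeats of a mean CPM moved by less than 1 SD. Leaving out 1 library of a group cannot by itself move that group's mean by 1 SD. No conclusion on the stability of the means is therefore drawn from these repeats.

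Of 840 member fold changes 42 changed sign, none larger than 0.139 on the log2 scale and none with an unadjusted p under 0.135; the cause was not tested. At 10 mg/kg against vehicle, PGS1 was -0.050 with no filter, -0.051 with limma-voom and -0.043 on TPM, PRELID1 -0.014 with no filter and -0.051 on TPM, and PTPMT1 -0.00063 on TPM. Without the 3 libraries PISD was 0.065, PGS1 -0.10 and PTPMT1 -0.0058. Leaving out 1 library gave -0.072 to 0.094 for PGS1 and -0.025 to 0.25 for PTDSS2. At 30 mg/kg against vehicle, PTPMT1 was -0.020 on library totals, -0.0091 with no filter, -0.037 with limma-voom, -0.043 on TPM, -0.015 with the replicate block and -0.11 without the 3 libraries, and PRELID1 was -0.019 without them. Leaving out 1 library gave -0.35 to 0.0028 for PTDSS2, -0.11 to 0.10 for PTPMT1, -0.015 to 0.15 for PRELID1 and -0.091 to 0.0054 for PISD. At 30 against 10 mg/kg, PRELID1 was -0.00076 on library totals and -0.14 without the 3 libraries, TAMM41 0.020 and TRIAP1 0.13 on TPM, and PISD -0.093 without the 3 libraries. Leaving out 1 library gave -0.21 to 0.035 for TRIAP1, -0.029 to 0.13 for PISD, -0.075 to 0.092 for PRELID1, -0.19 to 0.019 for TAMM41 and -0.19 to 0.024 for PTPMT1.

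Among list genes, LPCAT3 at 10 mg/kg was -0.0032 with no filter and -0.065 on TPM, and CEPT1 at 30 mg/kg was 0.0096 with limma-voom and -0.11 to 0.13 with 1 library left out. PCYT2 at 10 mg/kg passed in DESeq2, with at least 5 CPM in 6 libraries, without 10 mg/kg replicate 2, without 30 mg/kg replicate 5 and without the 3 libraries.

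Same-numbered libraries did not deviate together: their correlations ran from -0.281 to 0.224 over 18 pairs, and 1 of 18 libraries correlated best with its own number, so the numbers were not treated as pairing. With the replicate block, PTDSS1 alone differed by -0.25 at 10 mg/kg and by -0.18 at 30 mg/kg against vehicle, with an exact sign-flip p of 0.0625 at both. Without 1 library the difference ran from -0.284 to -0.216 at 10 mg/kg and from -0.205 to -0.1501 at 30 mg/kg, with every exact p at or below 0.026.

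Counts over all genes at each dose against vehicle, and for any difference, moved by over 1.5 times in the settings named here, except 87 to 60 with the block. Between 30 and 10 mg/kg the count was 0 in all 28 alternatives. The 66 calls at 10 mg/kg became 32 with no filter, 158 in DESeq2, 12 on TPM, 36 with the 2 groups alone, 24 with the replicate block and 31 to 121 with 1 library left out, the highest without 10 mg/kg replicate 2 (42, 40 and 31 without vehicle replicates 1, 2 and 5). The 87 calls at 30 mg/kg became 57 with no filter, 179 in DESeq2, 23 on TPM, 191 with the 2 groups alone, 60 with the block, 182 without 10 mg/kg replicate 2 and 223 without the 3 libraries. The 80 calls for any difference became 47, 206 and 16 in the first 3 of these settings, 42 with the block, 53 and 47 without vehicle replicates 4 and 5, 154 without 10 mg/kg replicate 2 and 162 without the 3 libraries. In 10 mg/kg replicate 2 the members had 3 to 62 counts, which limits what that library can show.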
